A study of Homo sapiens with 4 samples.

Results

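The genes PIK3CA, PIK3CB, PIK3R1, PIK3R2, AKT1, AKT2, TSC1 and TSC2 were followed in A2780/SRSF3si2 cells. This subline of A2780, a human ovarian cancer cell line, makes an siRNA against the splicing factor SRSF3 when doxycycline (Doxy) is added. The Doxy group had 0.1 μg/ml Doxy for 3 days and the No Doxy group had none. Each group had 2 arrays of the Affymetrix human exon type, and both groups carried the same siRNA cassette. One subline with one siRNA was profiled, and the effect of Doxy itself was not tested on these arrays. On such an array separate probe sets read the exons of a gene. The 8 genes, chosen by name from 16941 listed symbols, were read by 212 of the 261273 probe sets that the annotation pairs with a single symbol, and none of them shared a probe set with another symbol. A gene value is the mean log2 signal of the gene's probe sets in one array, and 16634 genes with at least 2 probe sets were tested. No source says that the arrays of a group came from separate cultures, so p-values reflect how far these arrays lay apart, which can be technical.

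Phosphoinositide 3-kinase (PI3K) of class I pairs a catalytic subunit, such as p110α from PIK3CA or p110β from PIK3CB, with a regulatory subunit, such as p85α from PIK3R1 or p85β from PIK3R2. The lipid it makes at the plasma membrane recruits the kinases AKT1 and AKT2, which then phosphorylate many proteins of growth and survival. One of these is tuberin, the product of TSC2, which works with hamartin, the product of TSC1, to hold the small GTPase RHEB and thereby mTORC1 in check. Activating mutations of PIK3CA occur in many carcinomas, and loss of TSC1 or TSC2 causes tuberous sclerosis.

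The targeted gene SRSF3 had values of 7.84 and 7.97 in the Doxy arrays, against 8.50 and 8.33 in the No Doxy arrays, a difference of -0.51 that missed the threshold (limma with Benjamini-Hochberg adjustment, adjusted p = 0.129) and passed it once arrays were centred on their medians. The array medians were 5.18 and 5.38 with Doxy and 5.20 and 5.04 without, so that centring lowers every gene's difference by 0.163. Doxy replicate 1 stood apart in G2/M genes, a list chosen after its values were seen, whose mean over 19 measured genes was 5.93 and 7.22 in Doxy replicates 1 and 2 and 7.02 and 7.36 in No Doxy replicates 1 and 2. Of 7 measured epithelial and ovarian carcinoma markers, EPCAM (2.10, adjusted p = 0.00298) and CDH1 (0.93, adjusted p = 0.0446) rose with Doxy. KRT18 (0.55, limma adjusted p = 0.163) and PAX8 (0.28) did not pass. Neither did KRT19 (-0.81, adjusted p = 0.0759), KRT8 (-0.38) and WT1 (-0.0073). The list averaged 5.14 to 5.27 in Doxy arrays and 4.78 to 4.87 in No Doxy arrays. The leukocyte marker PTPRC averaged 2.05 with Doxy and 2.25 without, and LYZ 2.18 with Doxy and 2.47 without. CD14 averaged 4.065 with Doxy and 4.108 without, and CD3E 3.78 with Doxy and 3.36 without. None of the 4 leukocyte or 6 endothelial markers measured passed the test. Of 6 fibroblast markers LUM averaged 9.23 with Doxy and 8.44 without and passed as higher (0.79, adjusted p = 0.0390). COL3A1 averaged 8.85 with Doxy and 9.51 without (-0.65, limma adjusted p = 0.0593), and DCN averaged 9.17 with Doxy and 9.25 without (-0.08). The rest had lower signals and did not pass. COL1A1 averaged 5.51 with Doxy and 5.29 without (0.22), and COL1A2 4.29 with Doxy and 4.41 without (-0.12). PDGFRB averaged 4.93 with Doxy and 4.46 without (0.47, limma adjusted p = 0.170). The fibroblast list averaged 6.99 to 7.01 in Doxy arrays and 6.84 to 6.94 in No Doxy arrays. The part these differences play in the results below was not tested.

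PIK3CB and TSC1 were higher in SRSF3-knockdown cells and the other 6 genes did not pass the test. Of all genes tested, 5.67% passed as higher and 1.7% as lower (limma, adjusted p under 0.05), and among the 8 genes 2 passed as higher and 0 as lower. Both Doxy arrays lay above both No Doxy arrays in 5 of the 8 genes, where 30.5% of all genes did, and below them in 1, where 21.8% did. The median difference was 0.54 over the 8 genes and 0.03 over all genes. Centred on array medians it was 0.37 over the 8 genes and -0.13 over all genes. In 7 of the 8 genes Doxy replicate 2, the array with the highest median, was above Doxy replicate 1. The share of all genes in which this held is not given here, so the count is not a result about the 8 genes. At the thresholds in the study's methods, an unadjusted p under 0.05 and a change of over 2-fold, PIK3CB alone of the 8 genes passed in limma as higher, where 3.02% of all genes did, and 0 passed as lower, where 1.06% did.

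**Figure D1:**
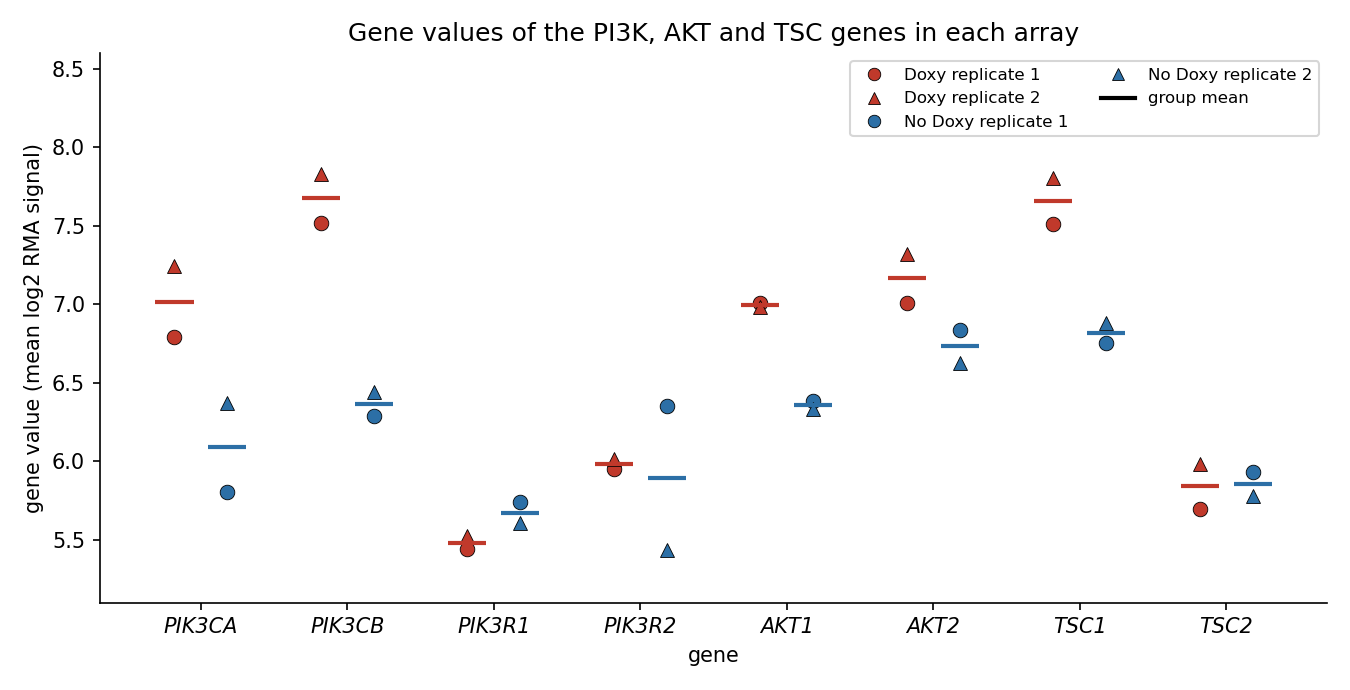
Gene values (mean log2 RMA signal, vertical axis) of the 8 genes in each array, Doxy in red on the left and No Doxy in blue on the right of each gene, with bars at the group means. PIK3CA, PIK3CB, AKT1, AKT2 and TSC1 have both Doxy arrays above both No Doxy arrays, and signals of different genes cannot be set against each other.

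The promoters of PIK3CB and TSC1, the genes that passed, and of TSC2, the partner of TSC1 that did not, are shown because the difference between hamartin and tuberin genes is the widest gap within a pair below. Each is the 250 bases before the gene's outermost start in the RefSeq promoter table (GRCh38.p14), 5′ to 3′ on the gene's strand, with motif matches on either strand in capitals. The windows of PIK3CB and TSC2 adjoin the gene spans given below. That of TSC1 lies inside the span, downstream of its outer end, so it is not placed like the other windows.
PIK3CB, chr3:138834929-138835178, minus strand: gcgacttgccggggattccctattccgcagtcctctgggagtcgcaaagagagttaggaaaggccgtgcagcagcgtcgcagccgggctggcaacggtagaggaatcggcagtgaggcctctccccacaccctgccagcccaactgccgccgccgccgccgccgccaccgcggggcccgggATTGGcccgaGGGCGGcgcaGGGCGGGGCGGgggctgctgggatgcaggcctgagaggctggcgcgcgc
TSC1, chr9:132944617-132944866, minus strand: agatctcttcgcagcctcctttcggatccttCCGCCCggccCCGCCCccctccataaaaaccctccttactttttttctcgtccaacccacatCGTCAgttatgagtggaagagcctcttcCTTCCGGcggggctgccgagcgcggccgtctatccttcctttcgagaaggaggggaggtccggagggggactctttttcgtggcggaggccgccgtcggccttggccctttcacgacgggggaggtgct
TSC2, chr16:2047735-2047984, plus strand: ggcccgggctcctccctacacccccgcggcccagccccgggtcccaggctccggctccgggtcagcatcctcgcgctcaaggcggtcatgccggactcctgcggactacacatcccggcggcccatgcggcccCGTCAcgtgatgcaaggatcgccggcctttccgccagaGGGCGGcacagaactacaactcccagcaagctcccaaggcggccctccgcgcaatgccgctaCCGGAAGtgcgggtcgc
The window of PIK3CB held 3 matches of GGGCGG, the GC box bound by Sp1, and 1 of CCAAT. TSC1 held 2 GC boxes and TSC2 held 1, and each of them had 1 match of CCGGAAG, an ETS core, and 1 of TGACG, the core of the cAMP response element. None of the 3 windows held GTAAACA, a site that FOXO factors bind. Of 35116 windows of the same length, 42.6% held GGGCGG, 32.0% CCAAT, 8.52% CCGGAAG, 21.2% TGACG and 2.98% GTAAACA. The GC content was 72.8% for PIK3CB, 62.0% for TSC1 and 71.6% for TSC2, with a median of 58.0% over all windows. A match describes the letters and is not a bound site.

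Of the catalytic subunits, PIK3CB (chr3:138652698-138834928, GRCh38.p14) had values of 7.52 and 7.83 in Doxy arrays, against 6.29 and 6.44 in No Doxy arrays. Its Doxy arrays were both well above its No Doxy arrays, and the gap between groups was wider than the gap within either. The means were 7.68 ± 0.22 with Doxy and 6.37 ± 0.11 without (SD, n = 2 arrays each). The difference was 1.31 (standard error 0.19, 95% interval 0.87 to 1.75), or 2.48-fold on the linear scale, with an adjusted p of 0.0129 from limma that ranked 168 among 16634 genes. With single arrays left out the difference stayed between 1.15 and 1.47, and the adjusted p stayed under 0.05 only without Doxy replicate 1.

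PIK3CA (chr3:179148126-179240093), the other catalytic subunit, had values of 6.79 and 7.24 in Doxy arrays, against 5.81 and 6.37 in No Doxy arrays. The groups did not overlap, but each was spread widely, with means of 7.02 ± 0.32 with Doxy and 6.09 ± 0.40 without (SD, n = 2 each). The difference of 0.93 (standard error 0.25, 95% interval 0.36 to 1.5) missed the threshold (limma, adjusted p = 0.0624) and passed it with arrays centred (0.77, adjusted p = 0.0325). Within each array, PIK3CB minus PIK3CA was 0.73 and 0.59 with Doxy and 0.48 and 0.07 without. The change of 0.38 between these differences had p = 0.333 in the exact permutation test over arrays, the smallest p that 2 arrays against 2 allow. With medians of probe sets as gene values it was -0.0022.

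Neither of the regulatory subunits among the 8 genes passed the test. PIK3R1 (chr5:68215756-68301821) had values of 5.44 and 5.53 in Doxy arrays, against 5.74 and 5.61 in No Doxy arrays. It was the one gene of the 8 with both Doxy arrays below both No Doxy arrays, by a difference of -0.19 (standard error 0.17, 95% interval -0.59 to 0.21, limma adjusted p = 0.594). PIK3R2 (chr19:18153163-18170532) had values of 5.95 and 6.01 in Doxy arrays, against 6.35 and 5.43 in No Doxy arrays. Its Doxy values lay between the No Doxy values, which were the most widely spread of any of the 8 genes (5.89 ± 0.65, SD, n = 2, against 5.98 ± 0.04 with Doxy). The difference of 0.09 (95% interval -0.57 to 0.75, limma adjusted p = 0.905) was -0.08 with arrays centred and -0.37 without No Doxy replicate 2. The interval leaves room for a change in either direction.

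AKT1 (chr14:104769349-104795748), the more widely expressed AKT kinase, had values of 7.01 and 6.99 in Doxy arrays, against 6.38 and 6.33 in No Doxy arrays. Replicates differed by far less than groups did (7.0 ± 0.02 with Doxy and 6.36 ± 0.04 without, SD, n = 2 each). The difference was 0.64 (standard error 0.17, 95% interval 0.25 to 1.03, 1.56-fold), with a limma adjusted p of 0.0617. AKT2 (chr19:40230317-40285345), the AKT kinase known for its role in insulin-stimulated glucose uptake, had values of 7.01 and 7.32 in Doxy arrays, against 6.84 and 6.63 in No Doxy arrays. Its groups did not overlap, and the difference of 0.43 (standard error 0.19, 95% interval -0.01 to 0.88) did not pass (limma, adjusted p = 0.230). The within-array difference AKT2 minus AKT1 overlapped between groups and changed by -0.20 (exact permutation test, p = 0.667, smallest possible 0.333).

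TSC1 (chr9:132891349-132945378) had values of 7.51 and 7.80 in Doxy arrays, against 6.75 and 6.88 in No Doxy arrays. Both Doxy arrays were higher, with means of 7.66 ± 0.20 with Doxy and 6.82 ± 0.09 without (SD, n = 2 each). The difference was 0.84 (standard error 0.19, 95% interval 0.41 to 1.27, 1.79-fold), with a limma adjusted p of 0.0374. This call was lost whichever array was left out (adjusted p from 0.0554 to 0.193) and when gene values were medians of probe sets (0.61, adjusted p = 0.217).

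TSC2 (chr16:2047985-2089491) had values of 5.70 and 5.98 in Doxy arrays, against 5.93 and 5.78 in No Doxy arrays. The groups overlapped and the difference was -0.02 (standard error 0.19, 95% interval -0.45 to 0.42, limma adjusted p = 0.976). Within arrays, TSC2 minus TSC1 was -1.82 and -1.82 with Doxy and -0.82 and -1.10 without, so that the genes of the complex moved apart by -0.86. The Doxy arrays did not overlap the No Doxy arrays in this measure (exact permutation test, p = 0.333, the smallest that 4 arrays allow), and the change stayed between -1.0 and -0.70 in every alternative run for it. Of the 4 pairs compared this change was the largest, and no pair could reach a p under 0.05.

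**Figure D2:**
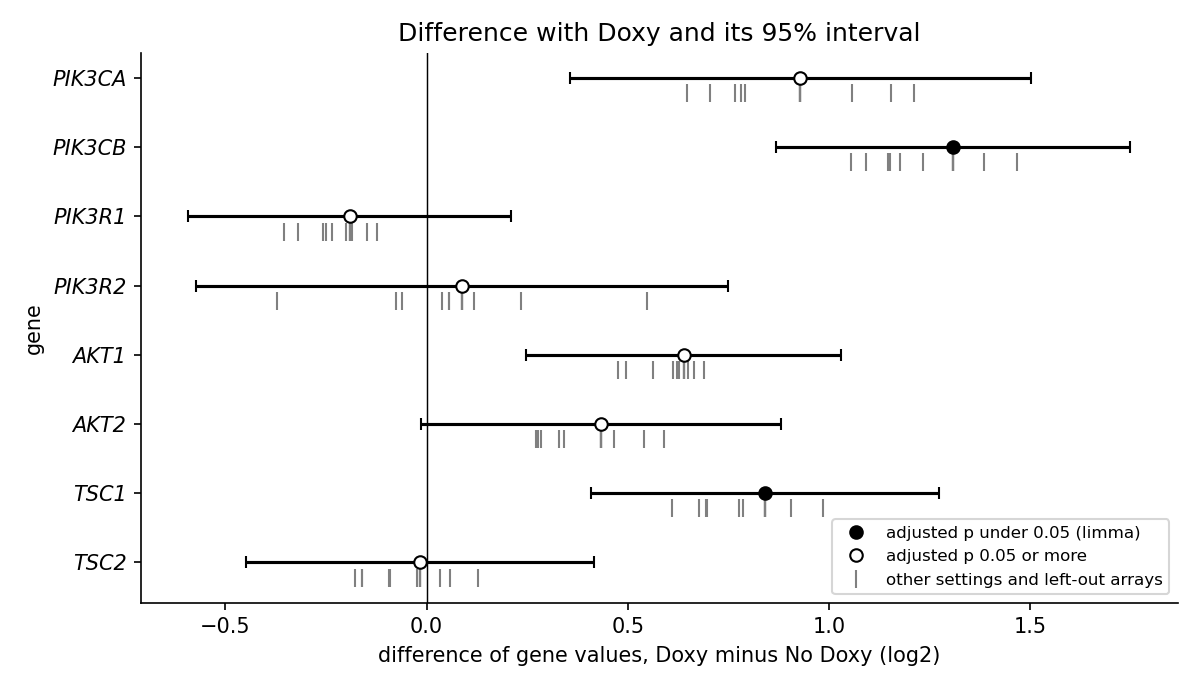
Difference of gene values, Doxy minus No Doxy (log2, horizontal axis), for each of the 8 genes, with the 95% interval from limma as a bar and the values under other settings and with arrays left out as grey ticks. The intervals of PIK3CA, PIK3CB, AKT1 and TSC1 lie above 0, and filled circles mark PIK3CB and TSC1, which passed at an adjusted p under 0.05.

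Single probe sets showed how evenly each gene moved. No probe set among the 261273 passed the adjusted threshold in limma (0% called in either direction, with 21902 higher and 11344 lower at an unadjusted p under 0.05), so the counts below use unadjusted p. Of the 212 probe sets of the 8 genes, 49 were higher and 2 lower at that p, where 8.38% and 4.34% of all probe sets were. Both Doxy arrays were above both No Doxy arrays in 100 of the 212 and below in 22, where 26.4% and 19% of all probe sets were. Probe sets of a gene share the arrays and are not independent.

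All 25 probe sets of PIK3CB had both Doxy arrays above both No Doxy arrays, and 19 had an unadjusted p under 0.05, with differences from 0.64 to 3.37 and a median of 1.06. PIK3CB was the only one of the 8 genes without an exception. PIK3CA had 12 of 21 above and 0 below, with a range of 0.18 to 2.36. TSC1 had 24 of 32 above and 0 below, with a median of 0.81. AKT1 had 15 of 20 above and 1 below, and AKT2 had 14 of 23 above and 0 below. In TSC2 the probe sets went both ways, 7 of 45 above and 8 below, with a median of -0.01. PIK3R1 had 1 of 21 above and 8 below, and PIK3R2 had 2 of 25 above and 5 below.

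**Figure D3:**
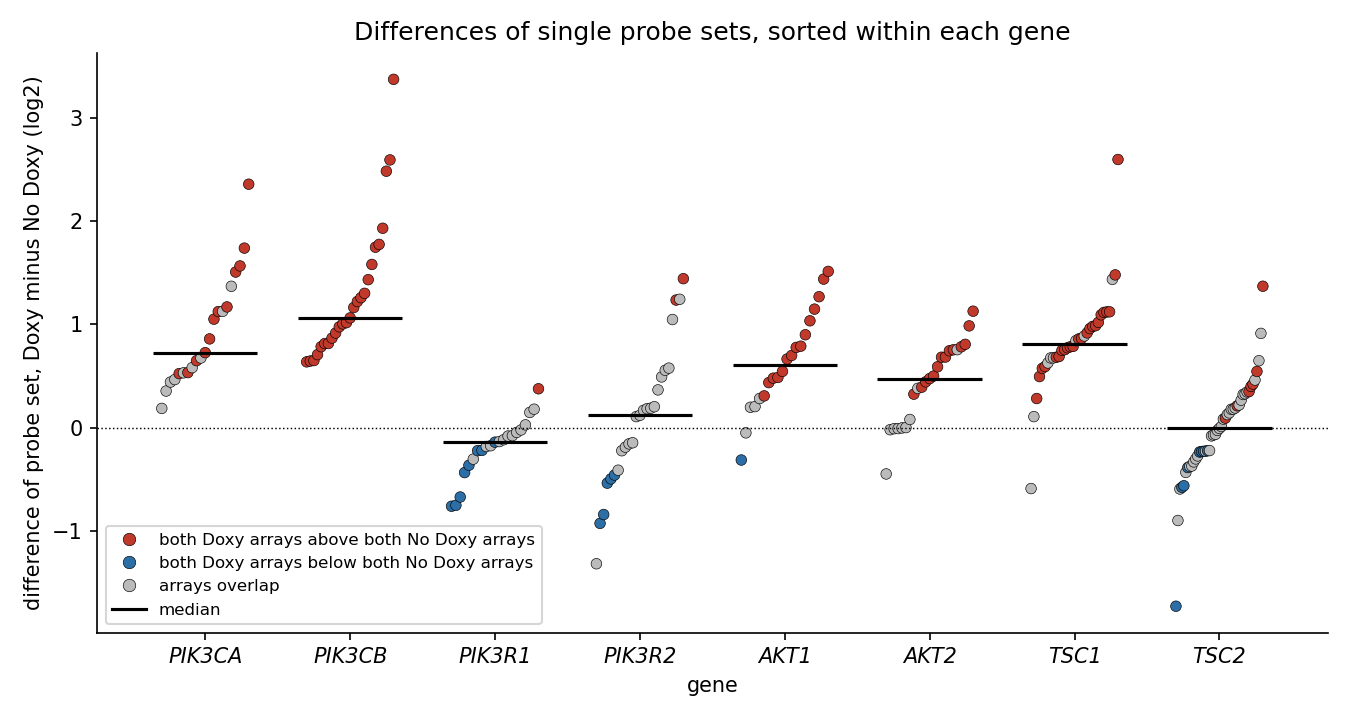
Difference of each probe set, Doxy minus No Doxy (log2, vertical axis), sorted within each of the 8 genes, with the gene's median as a bar and colours for probe sets whose Doxy arrays lie above, below or among the No Doxy arrays. The 25 probe sets of PIK3CB are all positive, while the 45 of TSC2 spread around 0 from -1.73 to 1.37.

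Unequal movement of a gene's probe sets, a sign of differential splicing, was tested with the F test of diffSplice in limma. It called 2.46% of all genes and 1 of the 8, PIK3CB (adjusted p = 0.0228). The Simes test of diffSplice called 5.36% of all genes and PIK3CB alone of the 8 (adjusted p = 0.00336), and an analysis of variance called 6.01% of all genes and, of the 8, PIK3CB (adjusted p = 0.00297) and AKT1 (adjusted p = 0.0393). The probe set of PIK3CB that stood farthest from the others was 2697570, with signals of 6.21 and 6.70 in Doxy arrays, against 3.73 and 2.44 in No Doxy arrays. Its No Doxy signals were low and far apart (6.45 ± 0.35 with Doxy and 3.08 ± 0.91 without, SD, n = 2 each). Its difference was 3.37 where the rest of the gene had a median of 1.04 (diffSplice test of single probe sets, adjusted p = 0.00184). How many of all probe sets passed that test is not given here, so the call cannot be set against a background. Probe set 2697590 had 4.78 and 5.47 in Doxy arrays, against 2.76 and 2.31 in No Doxy arrays. It did not pass the same test (diffSplice test of single probe sets, adjusted p = 0.152). At the other end, 2697568, a bright probe set, had 7.88 and 8.14 in Doxy arrays, against 7.30 and 7.45 in No Doxy arrays, a difference of 0.64. Every probe set of PIK3CB was therefore higher with Doxy, and they differed in how much.

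In 4 of the 5 genes with both Doxy arrays above both No Doxy arrays, dimmer probe sets had the larger differences. In a split chosen after seeing the data, the 12 dimmer probe sets of PIK3CB had a median difference of 1.66 and the 13 brighter ones 0.87. For PIK3CA these medians were 1.27 in the dimmer and 0.53 in the brighter probe sets, for AKT1 0.84 and 0.51, and for TSC1 0.95 and 0.75. AKT2 ran the other way, with 0.44 in the dimmer and 0.54 in the brighter probe sets. The medians were -0.10 in the dimmer and -0.22 in the brighter probe sets of PIK3R1, 0.19 and -0.16 for PIK3R2, and 0.16 and -0.07 for TSC2. The part of signal strength in the splicing call of PIK3CB was not tested. That call was lost with either Doxy array left out, when splicing calls over all genes became fewer too. It was also lost with the replicate number as a block (diffSplice F test, adjusted p = 0.109).

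TSC2 as a whole was not called for splicing (adjusted p = 0.678), but its probe set 3644420 passed the test of single probe sets (adjusted p = 0.0423). It had signals of 2.84 and 4.19 in Doxy arrays, against 4.51 and 5.97 in No Doxy arrays. The Doxy signals were both lower, by a difference of -1.73 where the other probe sets of the gene had a median of 0.00. The arrays of each group were over 1 log2 unit apart. The share of all probe sets that passed this test is not given here, so how unusual such a call is cannot be judged. In TSC1 the farthest probe set was 3228395, with 6.96 and 7.37 in Doxy arrays, against 4.07 and 5.07 in No Doxy arrays. Its difference of 2.59 missed the threshold of the single probe set test (adjusted p = 0.0562), and the gene's adjusted p was 0.820. A bright probe set of TSC1, 3228413, went against the gene with 10.63 and 9.48 in Doxy arrays and 10.21 and 11.08 in No Doxy arrays, and those overlapped.

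The farthest probe sets of the other genes did not pass. In PIK3CA it was 2653864, with a difference of 2.36 where the others had a median of 0.70. In PIK3R1 it was 2813134, with 5.35 and 5.72 in Doxy arrays, against 6.46 and 6.14 in No Doxy arrays (-0.76). In PIK3R2 it was 3824860, with 3.62 and 6.29 in Doxy arrays, against 6.14 and 6.40 in No Doxy arrays, a difference of -1.32 that came from Doxy replicate 1 and was 0.017 without it. AKT1 had 3581133, a probe set below 2 log2 units in every array (-0.31), and AKT2 had 3862528 (-0.45). The diffSplice adjusted p was 0.138 for AKT1, 0.837 for PIK3CA, 0.833 for AKT2, 0.869 for PIK3R2 and 1 for PIK3R1. Positions of these probe sets in exons were not analysed here.

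**Figure D4:**
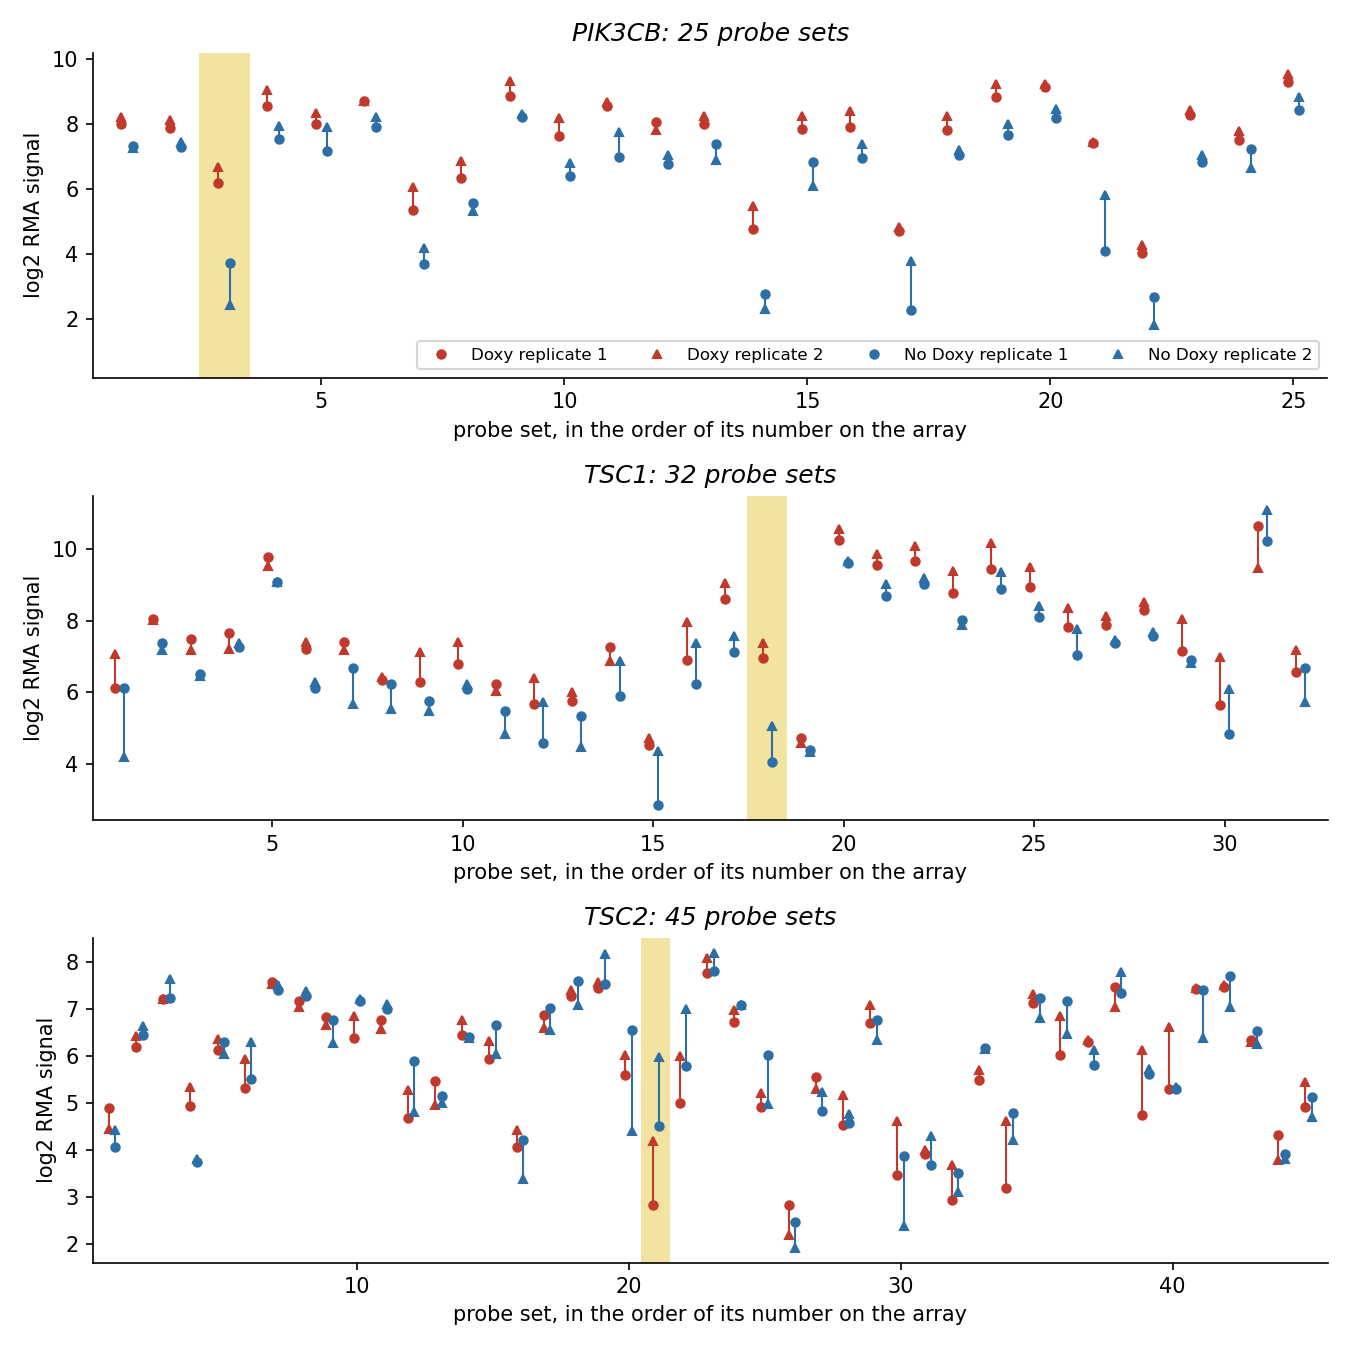
Log2 RMA signal (vertical axis) of every probe set of PIK3CB, TSC1 and TSC2, in the order of probe set numbers, with Doxy arrays in red left of No Doxy arrays in blue and lines joining the replicates. Shaded are probe sets 2697570, 3228395 and 3644420, whose differences of 3.37, 2.59 and -1.73 lie farthest from the rest of their gene.

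Around these 8 genes, 110 genes of 10 lists of the pathway had a gene value, out of 122 listed, and 10 passed as higher and 2 as lower. That share is set against 5.67% and 1.7% of all genes. The median difference over the 110 genes was 0.15, and with arrays centred it was -0.01, when 9 passed as higher and 5 as lower. The remaining list genes were not analysed here. With a single array left out, between 0 and 2 of the 110 genes passed as higher and between 0 and 2 as lower.

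Upstream of AKT, the growth factor receptors and adaptors had 0 of 17 genes called and a median of -0.09, with the largest difference in ERBB3, a receptor of the EGF receptor family (0.61, adjusted p = 0.0769). Among the other class I subunits 1 of 4 rose. It was PIK3R3, which encodes the regulatory subunit p55γ, with 7.26 and 7.53 in Doxy arrays, against 6.05 and 6.48 in No Doxy arrays (difference 1.13, standard error 0.21, limma adjusted p = 0.0240). The next largest was PIK3R5 at 0.09. Of the class II and III kinases 1 of 5 rose, PIK3C3, the kinase VPS34 of autophagy and endosomes, with 7.42 and 7.65 in Doxy arrays, against 6.65 and 6.79 in No Doxy arrays (0.81, adjusted p = 0.0377). PIK3C2B had -0.58 (adjusted p = 0.108), which passed with arrays centred (-0.75, adjusted p = 0.0271). The lipid and AKT phosphatases, which oppose PI3K and AKT, had 0 of 8 called and a median of 0.30, with PPP2CB, a catalytic subunit of protein phosphatase 2A, at 0.69 (adjusted p = 0.0540).

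In the list of PDK1, SGK kinases and mTORC2, the complex that completes the activation of AKT, 2 of 6 measured genes rose, both of them parts of mTORC2. RICTOR had 6.87 and 7.35 in Doxy arrays, against 6.11 and 6.12 in No Doxy arrays (0.99, standard error 0.21, limma adjusted p = 0.0313). MAPKAP1, which encodes SIN1, had 7.86 and 7.80 in Doxy arrays, against 7.17 and 6.98 in No Doxy arrays (0.76, limma adjusted p = 0.0431). It kept its call in 3 of 14 alternatives, the fewest of the called list genes. The other called genes of the 10 lists kept theirs in 6 (PIK3C3 and CAT) to 10 (DDIT4 and TXNIP) of the 14. PRR5, another mTORC2 gene, had 0.52 (adjusted p = 0.123). None of the 9 measured genes for the TSC partner, RHEB and mTORC1 passed, and the largest difference was -0.62 in RHEBL1, a relative of RHEB (adjusted p = 0.125). With arrays centred RHEBL1 passed as lower (-0.78, adjusted p = 0.0217).

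In the list of AKT and mTORC1 substrates, which also holds factors further downstream, 2 of 19 genes rose. FOXO4, a transcription factor that AKT keeps out of the nucleus, had 5.59 and 5.63 in Doxy arrays, against 4.67 and 4.53 in No Doxy arrays (1.01, standard error 0.17, limma adjusted p = 0.0187). RPS6KB1, the S6 kinase that mTORC1 activates, had 8.70 and 8.86 in Doxy arrays, against 7.92 and 7.87 in No Doxy arrays (0.88, adjusted p = 0.0269). EIF4B, a translation factor that S6 kinase phosphorylates, had 0.83 (adjusted p = 0.190). Of 12 FOXO target genes 1 rose and 1 fell. TXNIP, which restrains thioredoxin and glucose uptake, had 9.17 and 8.62 in Doxy arrays, against 10.4 and 10.5 in No Doxy arrays (-1.59, standard error 0.22, adjusted p = 0.0124). CAT, the catalase gene, had 6.79 and 6.90 in Doxy arrays, against 6.11 and 6.03 in No Doxy arrays (0.78, adjusted p = 0.0370), and it missed the threshold with arrays centred. GADD45A, a stress response gene, had -0.80 (adjusted p = 0.111) and passed with arrays centred (-0.96, adjusted p = 0.00751), when 0 genes of this list passed as higher and 2 as lower.

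Among 13 genes that bring energy and stress signals to TSC and AKT, DDIT4 fell and no gene rose. DDIT4 encodes REDD1, an inhibitor of mTORC1 that acts through the TSC complex, and it had 6.47 and 6.29 in Doxy arrays, against 7.73 and 7.43 in No Doxy arrays (-1.20, standard error 0.19, limma adjusted p = 0.0164). SESN2, a sestrin, had 0.89 (adjusted p = 0.0590), and it passed with arrays centred (0.72, adjusted p = 0.0293). The amino acid branch to mTORC1 had the highest median of the 10 lists, 0.46, and 3 of its 17 measured genes rose. LAMTOR3, a part of the lysosomal Ragulator complex, had 8.63 and 8.78 in Doxy arrays, against 7.91 and 7.59 in No Doxy arrays (0.95, adjusted p = 0.0280). DEPDC5, a part of the GATOR1 complex that restrains mTORC1, had 6.10 and 6.41 in Doxy arrays, against 5.26 and 5.33 in No Doxy arrays (0.96, adjusted p = 0.0264). RRAGB, a Rag GTPase, had 5.78 and 5.77 in Doxy arrays, against 4.96 and 4.91 in No Doxy arrays (0.84, adjusted p = 0.0284). FNIP1, a folliculin partner, had 0.77 (adjusted p = 0.0607). Genes that promote and genes that restrain mTORC1 were thus both among those that rose.

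**Figure D5:**
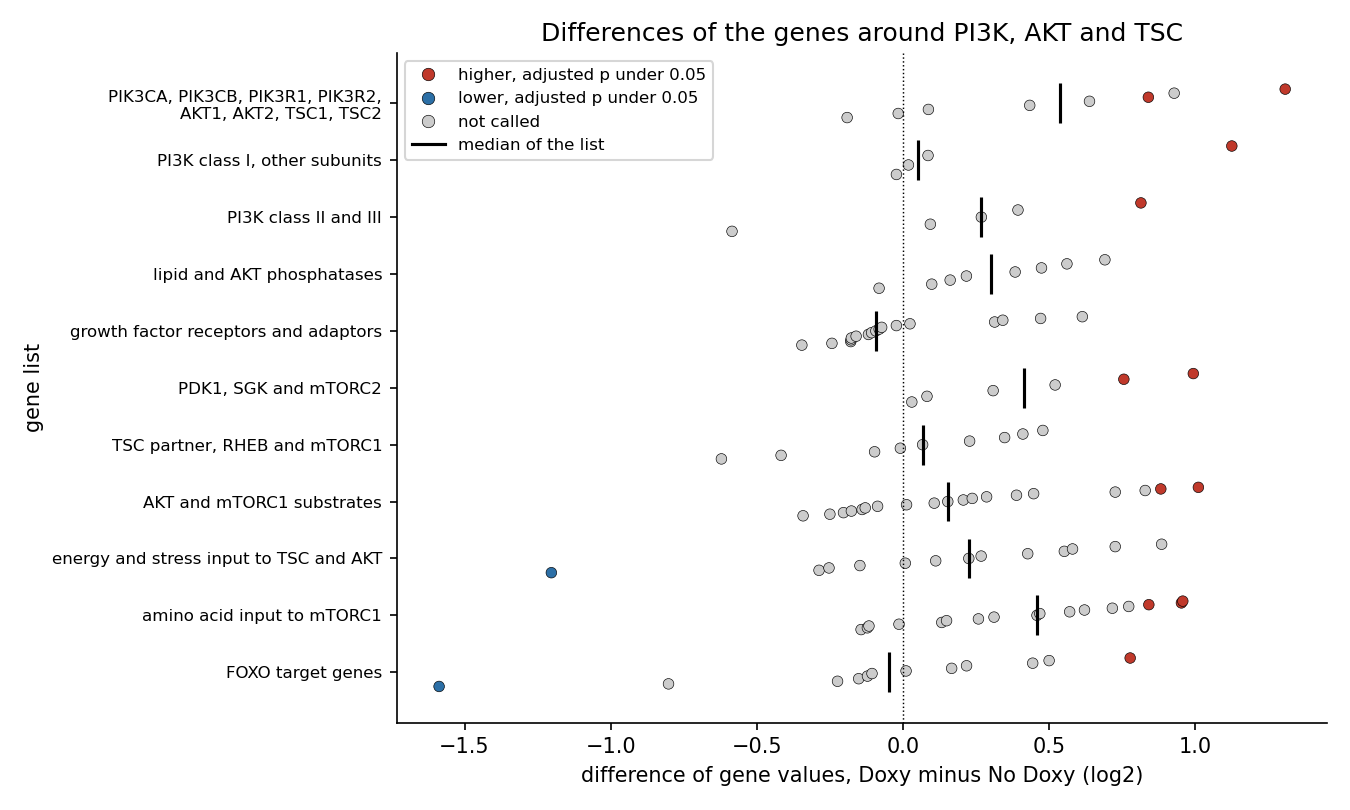
Difference of gene values, Doxy minus No Doxy (log2, horizontal axis), for the 8 genes in the top row and for the measured genes of the 10 pathway lists below, with a bar at each median and colours for genes with an adjusted p under 0.05. PIK3CB has the largest positive difference shown (1.31) and TXNIP the largest negative one (-1.59).

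By the splicing test 3 of the 110 genes passed, where 2.46% of all genes did. They were the AMP-activated kinase subunit PRKAA1 (adjusted p = 0.00451), RPS6KB1 (adjusted p = 0.0356) and the GATOR2 gene WDR59 (adjusted p = 0.0496), named after their values were seen. Over 8 alternatives PRKAA1 kept its call in 5, RPS6KB1 in 4 and WDR59 in 2, and without the dimmest probe sets PRKAA1 had an adjusted p of 0.0934 and WDR59 of 0.107.

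The genes whose pattern over the 4 arrays lay closest to that of PIK3CB were ANXA9, an annexin, at a root mean square distance of 0.0104 log2 units, SUB1, a transcriptional coactivator (0.0287), and DCAF11, a receptor subunit of a ubiquitin ligase (0.0328). Among 15788 genes with at least 4 probe sets, 69 lay within 0.1 of PIK3CB. Closest to TSC1 were ZYG11B, also a receptor subunit of a ubiquitin ligase (0.0137), MRPS10, a mitochondrial ribosomal protein gene (0.0174), and KIAA1191 (0.0198), and 319 genes lay within 0.1. A likeness over 4 arrays describes these arrays only.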

How the data were processed

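The authors made the deposited log2 values by RMA in Affymetrix Expression Console (core exons), with its version and genome build not stated there. They used Partek 6.6 for the lists of the paper. How arrays were centred is not known. Of the 287329 probe sets, 9155 with several symbols and 16901 with none were left out. Of 16941 symbols, 2276 were updated through RefSeq (GRCh38.p14), which also gave gene positions and promoters, and 119 not found there were kept. From these values gene means were tested by limma 3.58.1 in R 4.3.3 (residual degrees of freedom 2, prior 5.95), two-sided, with Benjamini-Hochberg adjustment over 16634 genes. Single probe sets were tested likewise over 261273, splicing by diffSplice, and within-array differences by an exact permutation test. Python 3.11.15 with matplotlib 3.10.9 drew the figures, and the code was tested on simulated data. With 2 arrays a group, the number of arrays limits the precision.

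The 8 genes and the lists, written from general knowledge, were chosen with earlier results of these data known. Named are the 8 genes, SRSF3, the called genes of each list (at most 4) and its largest difference not called, the probe set of each of the 8 genes farthest from the others, and the 3 genes nearest in pattern to each of the 8 that passed. Other probe sets, the splicing calls in the lists, the markers and the G2/M list were picked after their values were seen. Alternatives were gene values from medians or from Tukey's median polish, probe sets without the dimmest 25%, other minimums of probe sets, centred or quantile normalized arrays, a replicate block, the methods' t-test, a robust prior with a trend in limma, the methods' unadjusted p with 2-fold change, other splicing tests, and each array left out. The split by brightness was added after seeing the data.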

Additional observations from a re-analysis of the deposited data

How the results depend on the processing

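Where an array was left out and 1 remained in a group, it was assumed to vary like the others. Of the 8 genes, 2 passed as higher. This count was 0 with medians of probe sets or the methods' t-test after adjustment, 1 with median polish, with the dimmest probe sets left out, or at 2-fold with an unadjusted p by limma or the methods' t-test, 4 with at least 5 probe sets per gene, and 0 to 1 with an array left out. It was 3 with arrays centred, which added PIK3CA. The methods' t-test called 0 of all genes after adjustment. For medians, median polish, the dimmest probe sets left out, other minimums and the t-test at 2-fold, the share of all genes is not given here. Those counts are therefore not a result about the 8 genes. The list counts that follow under those settings are not a result about the lists either. Among the lists, 10 genes passed as higher. That count was 0 with medians or the adjusted t-test, 2 at 2-fold by limma or the t-test, 6 with median polish, 4 without the dimmest probe sets, and 0 to 2 with an array left out. The 2 that passed as lower became 5 with arrays centred, 0 with the adjusted t-test and 0 to 2 with an array left out. Over all genes, 943 higher and 282 lower calls became 917 and 956 with arrays centred, and calls of either direction became 680 without Doxy replicate 1, 152 without Doxy replicate 2 and 0 without either No Doxy array (3079 and 2571 at an unadjusted p under 0.05). Splicing calls among the 8 genes were 1, against 2 in the analysis of variance and 0 to 3 with an array left out. The 3 came without No Doxy replicate 1, when 4013 of all 16634 genes were called, against 409 with every array. No probe set of the 8 genes passed in any of 7 alternatives.

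PIK3CB kept its direction in all 14 alternatives that gave an adjusted p, which ran from 3.53e-05 to 0.311, and lost its call with medians (adjusted p = 0.0815), the adjusted t-test and without Doxy replicate 2 or either No Doxy array. TSC1 also kept its direction, and lost its call with medians, median polish, the dimmest probe sets left out, the adjusted t-test and each array left out. Some differences that had not passed changed sign. TSC2 had 0.034 with median polish, 0.13 without Doxy replicate 1 and 0.059 without No Doxy replicate 1, and the lowest value with an array left out was -0.16. PIK3R2 had -0.075 with arrays centred, -0.060 with quantile normalization and -0.37 without No Doxy replicate 2 (up to 0.55 otherwise), and PIK3R5 had -0.077 and -0.0074 with these scalings. PIK3CB minus PIK3CA was -0.0022 with medians (0.17 to 0.59 with an array left out), PIK3R2 minus PIK3R1 was -0.11 without No Doxy replicate 2 (up to 0.67 otherwise), and probe set 3824860 of PIK3R2 was 0.017 without Doxy replicate 1 and -2.66 without Doxy replicate 2.

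The labels do not describe replicate numbers as pairs, and arrays of the same number deviated together only weakly (r = 0.127 across genes, 2 pairs), so they were not taken as paired. With the replicate block, 4 of the 8 genes passed as higher, 19 list genes passed as higher and 4 as lower, and 0 of the 8 passed for splicing. Calls over all genes went up too under the block, with 1763 higher and 658 lower.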
